A study of Homo sapiens with 10 samples.

Results

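Untreated control cells of the human ovarian cancer line Kuramochi were split into cycling and G1 cells, and the expression of the cycling cells was set against that of the G1 cells. A deposited table lists cells of the series as G1; control cells absent from it are called cycling here, and those on it G1-listed. Of 4590 control cells among 13800 in the series, 2621 were cycling (1404 in pool 1 and 1217 in pool 2) and 1969 were G1-listed (1031 in pool 1 and 938 in pool 2). How the list was made is not given in the sources used here. Kuramochi is an epithelial line used as a model of high-grade serous carcinoma, and its labelled genotype is BRCA2-mutant. The control cells had no drug. The 4 other conditions were persister cells and adapted, olaparib-resistant populations. Persister cells had 9 days in 10 µM or 320 µM olaparib, an inhibitor of PARP enzymes, and adapted populations were at those same doses. These conditions are compared with control at the end. Their sums also share the estimate of spread between pools behind every p-value of the fit, and their cells were scored together with control cells for phase. Cells of all 5 conditions carried the same BRCA2-mutant background, were tagged with hashtag antibodies and were captured together in 2 pools by droplet single-cell RNA-seq of transcript 3′ ends. The labels do not tie the pools to different cultures; every p-value below therefore rests on variation between 2 pools, and that variation may be technical.

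A dividing cell passes from G1 through S phase, in which its DNA is copied, and G2 to mitosis. E2F factors switch on genes for DNA synthesis near the G1/S boundary, while the MYB-MuvB complex and FOXM1 switch on mitotic genes in G2, and the DREAM complex keeps many of both groups off in quiescent cells. Homologous recombination, the repair route that needs BRCA2, works in S and G2, when a sister copy is at hand, and tumours with BRCA2 mutations are sensitive to PARP inhibition.

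Cycling cells yielded more UMIs. Their median was 9917 UMIs (unique transcript molecules) per cell in pool 1 and 11699 in pool 2, against 7161 and 8454.5 in G1-listed cells, a ratio of 1.38 in both pools. Median genes per cell were 2977.5 and 3308 in cycling cells, against 2355 and 2579. The summed counts were 14467500 and 14850917 UMIs for cycling cells and 7784607 and 8338666 UMIs for G1-listed cells. Levels below are CPM, the count of a gene scaled to a fixed library total, of these sums after trimmed mean (TMM) scaling, given in the order pool 1, pool 2, so they are shares of the RNA and not amounts per cell. Levels in cycling cells called S, G2/M or G1 are CPM without TMM scaling. A count of 3 UMIs, read as the floor, equals 0.207 and 0.202 CPM in the cycling sums and 0.385 and 0.36 CPM in the G1-listed sums. The pools of a group differed by more than counting noise, with a chi-square per degree of freedom of 2.60 for cycling and 2.10 for G1-listed sums. Between the control cells of the pools, 1 cell barcode was shared. Mitochondrial transcripts made up 8.27% and 7.97% of UMIs in cycling cells, against 8.43% and 8.28%.

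Promoter sequences are shown as examples of the motifs counted below, because promoters of genes switched on in G2 and in S phase often hold different short motifs; the 6 genes were chosen after the search, for holding a match. Other genes with the same phase pattern held none in this stretch: TOP2A, CCNA2, CCNB1, KIF14 and SPC25, higher in G2/M-called cells, had no CHR match, and MCM2, MCM10 and CCNE1, higher in S-called cells, no E2F match. Each line gives the 140 bases before the annotated start in RefSeq (GRCh38.p14), read 5′ to 3′ in the direction of the gene. Capitals mark letters of the CHR motif (TTTGAA or TTCGAA), the CCAAT motif and the E2F motif (TTTCCCGC, TTTGGCGC, TTTCGCGC or TTTGCCGC), searched on both strands; the run of capitals near the end of MKI67 holds overlapping CHR and CCAAT matches. PLK1, CCNF, DEPDC1 and MKI67 were higher in G2/M-called than in S-called cycling cells, whereas E2F1 was higher in S-called cells and LIG1, a DNA ligase gene, was at means of 60.3 CPM in S-called and 57.3 CPM in G2/M-called cells. The stretches are chr16:23678749-23678888 (plus strand) for PLK1, chr16:2429307-2429446 (plus) for CCNF, chr1:68497083-68497222 (minus) for DEPDC1, chr10:128126424-128126563 (minus) for MKI67, chr20:33686386-33686525 (minus) for E2F1 and chr19:48170345-48170484 (minus) for LIG1.
PLK1: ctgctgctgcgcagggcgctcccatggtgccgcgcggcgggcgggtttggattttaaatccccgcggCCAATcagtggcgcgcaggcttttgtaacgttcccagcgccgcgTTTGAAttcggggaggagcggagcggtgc
CCNF: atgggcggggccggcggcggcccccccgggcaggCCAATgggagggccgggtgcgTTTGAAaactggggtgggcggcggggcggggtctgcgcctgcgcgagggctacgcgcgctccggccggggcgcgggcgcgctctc
DEPDC1: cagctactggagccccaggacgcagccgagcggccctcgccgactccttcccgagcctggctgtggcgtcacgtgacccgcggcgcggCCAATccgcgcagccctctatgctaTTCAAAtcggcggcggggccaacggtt
MKI67: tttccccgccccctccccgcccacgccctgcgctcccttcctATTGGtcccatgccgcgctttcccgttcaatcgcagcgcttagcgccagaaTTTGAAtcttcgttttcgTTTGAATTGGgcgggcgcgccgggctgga
E2F1: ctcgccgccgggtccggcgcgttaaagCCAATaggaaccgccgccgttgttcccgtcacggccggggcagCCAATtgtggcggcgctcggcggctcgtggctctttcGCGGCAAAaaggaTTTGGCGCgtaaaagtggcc
LIG1: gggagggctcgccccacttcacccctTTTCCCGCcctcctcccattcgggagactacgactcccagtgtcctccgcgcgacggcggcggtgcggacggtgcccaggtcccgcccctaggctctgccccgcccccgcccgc

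Motif shares are given by the phase in which a gene was higher. RefSeq windows of 300 bases, 250 before and 50 after a start, were matched for 10509 of 12892 tested genes (15459 windows). CHR was in 11.97% of these windows, CCAAT in 34.6% and E2F in 4.84%. Of 90 genes at least 2-fold higher in cycling cells whose G2/M-called level was at least 1.5 times the S-called level, 72 were matched, and CHR was in 47.5% and E2F in 6.93% of their 101 windows. Of 41 such genes with the opposite phase pattern, 35 were matched, and CHR was in 9.52% and E2F in 31.0% of their 42 windows. Of the other 243 genes that rose at least 2-fold, with neither phase pattern, 201 were matched, and CHR was in 21.7% and E2F in 17.1% of their 281 windows. CCAAT was in 68.3% of windows of the G2/M group, 59.5% of the S group and 38.4% of the rest. In the 35116 windows of the whole table the shares were 16.4% for CHR, 34.6% for CCAAT and 3.31% for E2F. A match is a description of letters in the window, with no test.

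The split followed the proliferation markers. MKI67, the Ki-67 antigen of dividing cells, was at 234 and 237 CPM in cycling cells, against 10.8 and 9.54 CPM in G1-listed cells. TOP2A, the topoisomerase that untangles replicated DNA, was at 357 and 363 CPM in cycling cells, against 23.9 and 26.6 CPM in G1-listed cells. After each cell was thinned to 3000 UMIs, MKI67 was detected in 38.7% (95% exact binomial interval 36.1 to 41.3) and 39.5% (36.7 to 42.3) of cycling cells, against 2.54% (1.67 to 3.70) and 2.36% (1.49 to 3.55) of G1-listed cells. These intervals cover counting error only. Without thinning the shares were 63.5% and 65.9%, against 7.37% and 7.14%. For comparison, PTPRC, a leukocyte gene this line should lack, was detected in 0 of the thinned cells of either group. Both markers belong to the S and G2/M gene lists shipped with Seurat, a tool named in the submitters' processing notes, and these 100 tested genes may have made the deposited list. They are called scoring genes here and described with no test, and any gene that varies with them differs between the groups by that construction. Of 46 S scoring genes, the median log2 difference, cycling minus G1-listed, was 1.98, with a range of -0.02 (MRPL36) to 4.37 (CCNE2). Of 54 G2/M scoring genes it was 2.60, with a range of 0.46 (CTCF) to 4.54 (MKI67).

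The labelled epithelial type was checked against its markers in both groups. KRT18, a keratin of simple epithelia, was detected in 97.0% and 97.0% of thinned cycling cells, against 96.7% and 96.8% of G1-listed cells. In CPM before TMM scaling, WT1, a transcription factor of the serous lineage, was at 26.8 and 27.2 in cycling cells, against 19.8 and 24.6 in G1-listed cells, and EPCAM, an epithelial adhesion gene, at 4.15 and 4.71, against 4.62 and 5.76. MUC16, the CA-125 antigen, had 5 or 6 UMIs in each sum, so these 2 epithelial antigens were low in both groups. Of markers of other cell types, PTPRC, CD3D, CALB2, DCN, LUM, LYZ, CD14 and PECAM1 had at most 4 UMIs in any sum. Others were low but present: the endothelial genes CDH5 and VWF had 27 and 30 UMIs (CDH5) and 17 and 24 UMIs (VWF) in cycling cells, against 19 and 33 UMIs (CDH5) and 6 and 10 UMIs (VWF) in G1-listed cells. COL1A1 had 13 and 16 UMIs in cycling cells, against 7 and 12, and LRRN4, a mesothelial gene, 17 and 14 UMIs, against 0 and 3. Over whole lists, the tested leukocyte markers (2 of 14 in the matrix) summed to 0.752 and 0.597 CPM in cycling cells, against 0.901 and 1.43 CPM in G1-listed cells, and the endothelial markers (5 of 7) to 58.6 and 57.0 CPM, against 59.7 and 58.6 CPM. Fibroblast markers (7 of 10) summed to 47.6 and 50.7 CPM, against 52.2 and 46.4 CPM, and mesothelial markers (5 of 8), which include WT1, to 160 and 154 CPM, against 158 and 154 CPM. As shares of RNA, THY1 rose and COL3A1 fell among the fibroblast markers, and UPK3B and LRRN4 rose and MSLN fell among the mesothelial ones; the call of THY1 was lost without cycling pool 2 and without G1 pool 2, and scaled by cell number MSLN was higher in cycling cells. In CPM before TMM scaling, COL3A1 was at 8.64 and 9.70 in cycling cells, against 17.2 and 15.4 in G1-listed cells, and UPK3B at 49.0 and 49.0, against 35.5 and 32.6.

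**Figure D1:**
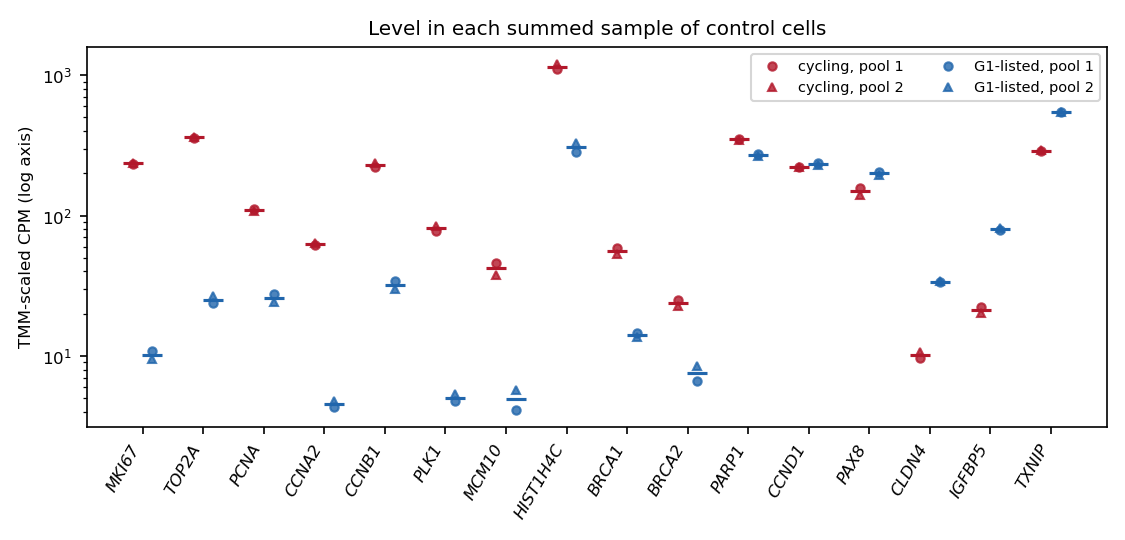
Levels of 16 genes in each control sum, in TMM-scaled CPM on a log axis. Red marks cycling cells and blue G1-listed cells, circles pool 1 and triangles pool 2, and bars the mean of the 2 pools; the pools lie close together, and cycling cells were above G1-listed cells from MKI67 to PARP1 and below them for PAX8, CLDN4, IGFBP5 and TXNIP, as shares of RNA; per cell PAX8 was 1.03 times as high in cycling cells.

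The split reached well beyond the proliferation markers. Among the 12792 genes that were not scoring genes, 1722 (13.5%) rose and 1345 (10.5%) fell in edgeR's quasi-likelihood test, at a Benjamini-Hochberg adjusted p under 0.05; 374 rose and 108 fell by at least 2-fold. With the scoring genes, which entered the fit, the fit covered 12892 genes, of which 1820 (14.1%) were higher in cycling cells, 98 of them scoring genes, and 1345 (10.4%) lower. Which direction had more genes depended on the scaling: with median-ratio size factors in place of TMM, 1584 rose and 1720 fell. When sums were scaled by the number of cells instead of by total RNA, the whole distribution shifted, its median by 0.47 in log2 units, and 4645 genes were higher and 50 lower in cycling cells. A fall reported below is therefore a lower share of the RNA, and the ratio of UMIs per cell stands beside the genes whose levels are given. Counts of list members below are to be read beside the 13.5% rises and 10.5% falls over all non-scoring genes. Lists and their members were chosen with earlier results of these data known, so these counts describe the lists and are not independent support. The shares over all genes also include low genes, which pass less often. Among 9435 genes with at least 200 UMIs in control, scoring genes included, 1642 rose and 1465 fell, so lists of abundant genes stand out less than these shares imply. The number of falls was between 812 and 880 when any 1 of the 4 control sums was left out: 812 without G1 pool 1, 837 without cycling pool 2, 873 without G1 pool 2 and 880 without cycling pool 1.

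**Figure D2:**
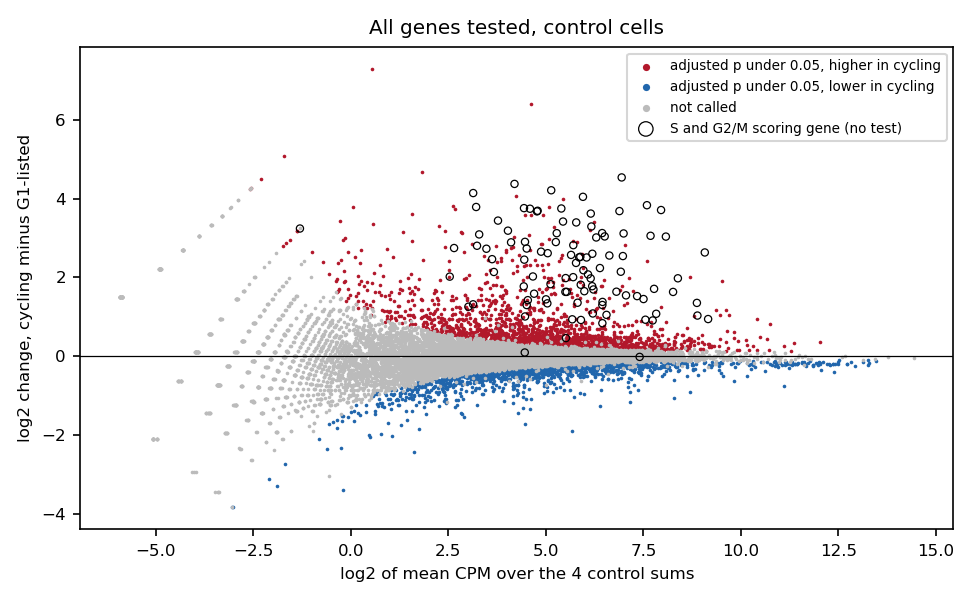
Log2 difference, cycling minus G1-listed control cells, against the log2 of the mean CPM for all tested genes with a UMI in control cells (25 tested genes had none). Red points passed the test as higher and blue points as lower in cycling cells, as shares of RNA; scoring genes, circled, lie mostly between 1 and 4.5, and no test is read from them.

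The 15 largest rises among well-expressed genes were FAM111B, HIST1H1B, PLK1, CCNA2, KIF14, MXD3, FAM83D, DEPDC1, SPC25, NCAPG, MCM10, CCNF, HIST1H1A, FAM111A and FBXO5. FAM111B (chr11:59107185-59127410, GRCh38, GENCODE 29), a protease gene, was at 49.9 and 47.5 CPM in cycling cells, against 0.257 and 0.835 CPM in G1-listed cells. The G1-listed values are 2 and 7 UMIs, and the fold over both pools was 88.4 (95% counting interval 46.4 to 194). Its fitted log2 difference was 6.403 (SE 0.22, adjusted p = 3.25e-33). FAM111A, its neighbour, was at 91 and 92.3 CPM in cycling cells, against 11.3 and 12.9 CPM in G1-listed cells, a log2 difference of 2.92 (SE 0.1, adjusted p = 1.88e-32). MXD3, a MAX-binding repressor, was at 41.8 and 40.2 CPM in cycling cells, against 3.09 and 3.7 CPM in G1-listed cells, a log2 difference of 3.58 (SE 0.15, adjusted p = 2.91e-29). In each of these genes, both cycling sums lay above both G1-listed sums, which the choice of the 15 required.

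Most genes that copy DNA were higher in cycling cells, from licensing factors to the ligase of the lagging strand. Of 37 genes for licensing and the replication fork that were not scoring genes, 31 rose and none fell, with a median log2 difference of 1.16, beside -0.01 over all non-scoring genes tested; 34 had both cycling sums above both G1-listed sums, as 31.1% of all 12892 genes did. MCM10 (chr10:13161554-13211104), which helps activate the replicative helicase, was at 46.3 and 37.9 CPM in cycling cells, against 4.12 and 5.72 CPM in G1-listed cells, a log2 difference of 3.08 (SE 0.15, adjusted p = 1.77e-26). CDT1, a licensing factor that helps load MCM helicases and was chosen after its values were seen, was at 15.1 and 15.3 CPM in cycling cells, against 1.42 and 2.74 CPM in G1-listed cells. LIG1, which seals Okazaki fragments, was at 58 and 53.3 CPM in cycling cells, against 17.4 and 19.2 CPM in G1-listed cells, and RFC4, a subunit of the clamp loader, at 75.9 and 73.9 CPM in cycling cells, against 28.6 and 31.4 CPM in G1-listed cells. DBF4, the activator of the CDC7 kinase, was at 86.6 and 87.5 CPM in cycling cells, against 32 and 30.4 CPM in G1-listed cells. The 6 genes of the list that did not pass the test, ORC2, ORC3, ORC4, ORC5, POLD2 and POLD4, had log2 differences of -0.09 to 0.35. The clamp PCNA and the helicase subunit MCM2, scoring genes, were at 111 and 108 CPM in cycling cells, against 27.8 and 24.2 CPM in G1-listed cells for PCNA and 38.8 and 39.1 CPM in cycling cells, against 11.6 and 14.3 CPM in G1-listed cells for MCM2.

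Of 25 genes that supply nucleotides, 17 rose and 1, IMPDH2, fell (median log2 difference 0.49). TK1, the thymidine kinase of dividing cells, was at 117 and 116 CPM in cycling cells, against 38.9 and 36 CPM in G1-listed cells, a log2 difference of 1.64 (SE 0.079, adjusted p = 4.77e-26). DUT, which keeps uracil out of DNA, was at 183 and 181 CPM in cycling cells, against 70.5 and 76.4 CPM in G1-listed cells.

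Histone genes moved in both directions. Of 40 tested replication-dependent histone genes, among 69 in the matrix, 25 rose and 6 fell, with a median log2 difference of 1.33. Most transcripts of this family end without a poly(A) tail, so a poly(A)-primed 3′ library catches only part of them, and near-identical copies can share reads. HIST1H4C (chr6:26103876-26104310), an H4 gene, was at 1107 and 1193 CPM in cycling cells, against 285 and 327 CPM in G1-listed cells, a log2 difference of 1.91 (SE 0.065, adjusted p = 2.08e-22). The linker histone gene HIST1H1B was at 35.3 and 35.8 CPM in cycling cells, against 1.54 and 2.62 CPM in G1-listed cells, a log2 difference of 4.07 (SE 0.2, adjusted p = 1.52e-22). Of the 40, 33 had more UMIs per cell in cycling cells. In contrast, HIST1H2AC fell, at 47.4 and 49.5 CPM in cycling cells, against 126 and 109 CPM in G1-listed cells, a log2 difference of -1.28 (SE 0.091, adjusted p = 1.80e-12) and a UMI per cell ratio of 0.575. HIST1H2BD was at 12.6 and 14.5 CPM in cycling cells, against 34.7 and 34.5 CPM in G1-listed cells, with a UMI per cell ratio of 0.544, and HIST1H2BG, HIST1H3E, HIST2H2BE and HIST3H2A also fell. Of 10 variant and linker histone genes made outside replication, 4 rose (H2AFX, H2AFZ, H2AFV and H2AFY) and 1, H1F0, fell; H2AFZ, a variant of H2A at promoters, was at 1804 and 1788 CPM in cycling cells, against 938 and 929 CPM in G1-listed cells.

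Chromatin assembly followed the same direction, with 16 rises and no falls among 23 genes (median log2 difference 0.47). CHAF1A, which places histones behind the fork, was at 49.8 and 49.5 CPM in cycling cells, against 12.4 and 12.4 CPM in G1-listed cells, a log2 difference of 2.00 (SE 0.11, adjusted p = 2.32e-23), and the histone chaperone ASF1B at 34 and 33.2 CPM in cycling cells, against 5.79 and 5.61 CPM in G1-listed cells. EZH2, the methyltransferase of Polycomb repressive complex 2, was at 67 and 64.2 CPM in cycling cells, against 16.1 and 15.3 CPM in G1-listed cells. HMGB1, an abundant DNA-bending protein gene, was at 2168 and 2194 CPM in cycling cells, against 1250.2 and 1227 CPM in G1-listed cells, a smaller log2 difference of 0.82 (SE 0.048, adjusted p = 6.33e-22).

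The spindle list had the highest median of the gene lists described here. All 22 non-scoring genes for spindle, mitotic motors and cytokinesis rose, with a median log2 difference of 2.22. Both cycling sums lay above both G1-listed sums in each, as in 31.1% of all 12892 genes. KIF14, a kinesin of cytokinesis, was at 53.2 and 58.7 CPM in cycling cells, against 5.02 and 4.29 CPM in G1-listed cells, a log2 difference of 3.59 (SE 0.13, adjusted p = 1.52e-31). FAM83D, which brings a kinase to the spindle, was at 44.3 and 45.8 CPM in cycling cells, against 3.86 and 3.7 CPM in G1-listed cells, and ASPM, a spindle pole protein gene, at 330.3 and 323 CPM in cycling cells, against 60.6 and 62.7 CPM in G1-listed cells. Of 34 centromere, kinetochore and spindle checkpoint genes, 32 rose and none fell (median 1.19), the exceptions being MAD1L1 and MIS12. SPC25, of the outer kinetochore, was at 66.8 and 67.9 CPM in cycling cells, against 4.76 and 8.94 CPM in G1-listed cells, and BUB1B, the checkpoint kinase BubR1, at 70.5 and 66.3 CPM in cycling cells, against 12.7 and 12.8 CPM in G1-listed cells. MAD2L1, which holds the anaphase-promoting complex in check, was at 179 and 183 CPM in cycling cells, against 53.5 and 60.3 CPM in G1-listed cells. Of 23 cohesin and condensin genes, 19 rose and none fell (median 1.14); the condensin subunit gene NCAPG was at 127 and 125 CPM in cycling cells, against 14.2 and 13.1 CPM in G1-listed cells, and ESCO2, which acetylates cohesin in S phase, at 51.5 and 50.8 CPM in cycling cells, against 6.82 and 7.39 CPM in G1-listed cells. Centriole and centrosome genes rose in 20 of 22 cases, with a lower median of 0.77, and tubulin genes in 7 of 12, among them TUBB at 1080.0 and 1089 CPM in cycling cells, against 469 and 500.4 CPM in G1-listed cells and TUBA1B at 1071 and 1155 CPM in cycling cells, against 534 and 547 CPM in G1-listed cells.

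Among the drivers of the cycle, A and B cyclins and mitotic kinases differed far more than the D cyclin of G1. Of 22 cyclins, cyclin-dependent kinases and mitotic kinases, 16 rose and 1, CDK6, fell. CCNA2 (chr4:121816444-121823933), cyclin A2, was at 62.1 and 64.1 CPM in cycling cells, against 4.37 and 4.77 CPM in G1-listed cells, a log2 difference of 3.78 (SE 0.13, adjusted p = 1.75e-33). CCNB1 (chr5:69167010-69178245), cyclin B1, was at 220.0 and 235 CPM in cycling cells, against 34.3 and 30.1 CPM in G1-listed cells, a log2 difference of 2.82 (SE 0.079, adjusted p = 6.84e-38). PLK1 (chr16:23677656-23690367), the main mitotic polo-like kinase, was at 78.3 and 84.4 CPM in cycling cells, against 4.76 and 5.37 CPM in G1-listed cells, a log2 difference of 3.998 (SE 0.13, adjusted p = 3.46e-35). CCNF, cyclin F, a substrate adaptor of an SCF ubiquitin ligase, was at 32.5 and 32.8 CPM in cycling cells, against 3.47 and 4.53 CPM in G1-listed cells, a log2 difference of 3.01 (SE 0.15, adjusted p = 1.28e-25). CCNE1, cyclin E1 of the G1/S boundary, was at 21.5 and 24 CPM in cycling cells, against 13.1 and 14.3 CPM in G1-listed cells, a smaller log2 difference of 0.73 (SE 0.17, adjusted p = 0.00294), which lost its call without G1 pool 1. CCND1, cyclin D1, was at 221 and 221 CPM in cycling cells, against 237 and 229 CPM in G1-listed cells, a log2 difference of -0.08 (SE 0.068, adjusted p = 0.473) that did not pass the test. The scoring genes CDK1 and CCNE2 were at 156 and 168 CPM in cycling cells, against 19.3 and 20.2 CPM in G1-listed cells for CDK1 and 35 and 34.9 CPM in cycling cells, against 2.06 and 1.31 CPM in G1-listed cells for CCNE2.

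No inhibitor of cyclin-dependent kinases passed the test as lower in cycling cells. Of 11 such genes and pocket protein genes, 4 rose (CDKN1A, CDKN2C, CDKN2D and RBL1) and none fell. CDKN1A, which encodes p21, was at 16.1 and 18.3 CPM in cycling cells, against 10.4 and 11.2 CPM in G1-listed cells, a log2 difference of 0.67 (SE 0.13, adjusted p = 3.79e-05). CDKN2D was at 22 and 22.8 CPM in cycling cells, against 8.75 and 10.9 CPM in G1-listed cells, a log2 difference of 1.19 (SE 0.14, adjusted p = 8.31e-10). CDKN1B, which encodes p27, was at 27 and 24.4 CPM in cycling cells, against 22.8 and 23.9 CPM in G1-listed cells, a log2 difference of 0.14 (SE 0.11, adjusted p = 0.405). It did not pass the test.

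Of 20 E2F, DREAM and MYB-MuvB genes, 13 rose and 1, TFDP2, fell. E2F1 was at 11.6 and 12.1 CPM in cycling cells, against 2.7 and 3.34 CPM in G1-listed cells, a log2 difference of 1.96 (SE 0.22, adjusted p = 1.10e-10). MYBL2, the MYB factor of the G2 programme, was at 96.9 and 105 CPM in cycling cells, against 21 and 22.3 CPM in G1-listed cells, a log2 difference of 2.22 (SE 0.09, adjusted p = 6.49e-30), and FOXM1 at 21.3 and 27 CPM in cycling cells, against 3.86 and 5.13 CPM in G1-listed cells, a log2 difference of 2.41 (SE 0.17, adjusted p = 5.54e-19). Of 23 anaphase-promoting complex and SCF genes, 8 rose (34.8%, beside 13.5% of all non-scoring genes) and 1, SKP1, fell. FBXO5, which inhibits the anaphase-promoting complex until mitosis, was at 98.4 and 97.9 CPM in cycling cells, against 13.1 and 13.1 CPM in G1-listed cells, and UBE2S, a ubiquitin-conjugating partner of that complex, at 650.3 and 685 CPM in cycling cells, against 163 and 168 CPM in G1-listed cells.

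DNA repair genes tied to replication were higher in cycling cells. Of 37 homologous recombination and Fanconi anemia genes, 28 rose and none fell, with a median log2 difference of 1.05. BRCA1 (chr17:43044295-43170245) was at 59.2 and 53.4 CPM in cycling cells, against 14.7 and 13.7 CPM in G1-listed cells, a log2 difference of 1.99 (SE 0.099, adjusted p = 2.28e-25). BRCA2 (chr13:32315474-32400266), mutated in this line, was at 24.9 and 22.7 CPM in cycling cells, against 6.69 and 8.47 CPM in G1-listed cells, a log2 difference of 1.64 (SE 0.14, adjusted p = 4.03e-15), a measure of its RNA only. BARD1, the partner of BRCA1, was at 74.4 and 74.6 CPM in cycling cells, against 24.1 and 22.1 CPM in G1-listed cells, and FANCI, of the complex that marks crosslinks, at 52 and 51.9 CPM in cycling cells, against 13.5 and 14.9 CPM in G1-listed cells. Of 26 checkpoint genes, 13 rose and 1, ETAA1, fell; CHEK1, the kinase that slows a damaged fork's cell cycle, was at 73.9 and 71.4 CPM in cycling cells, against 12.2 and 12.3 CPM in G1-listed cells, a log2 difference of 2.57 (SE 0.1, adjusted p = 2.84e-30). ATM, the kinase activated by double-strand breaks and also chosen after its values were seen, was at 41.6 and 41.7 CPM in cycling cells, against 43.5 and 39.2 CPM in G1-listed cells, and did not pass the test.

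PARP1 and PARP2, the targets of olaparib, were both higher in cycling cells, by less than the recombination genes named above. PARP1 (chr1:226360691-226408079) was at 354 and 345 CPM in cycling cells, against 275 and 264 CPM in G1-listed cells, a log2 difference of 0.37 (SE 0.053, adjusted p = 8.01e-08). PARP2 was at 34 and 33.6 CPM in cycling cells, against 17.8 and 17.8 CPM in G1-listed cells, a log2 difference of 0.93 (SE 0.1, adjusted p = 9.86e-11). HPF1, the cofactor that directs PARP1 to serine residues, was at 53.4 and 57.3 CPM in cycling cells, against 41.3 and 38.8 CPM in G1-listed cells, a log2 difference of 0.47 (SE 0.084, adjusted p = 9.62e-06) that lost its call after thinning. Of 20 genes in this list, 6 rose (with NEIL3, OGG1 and TDP1) and none fell, with a list median of 0.10. The share of rises was 30.0%, beside 13.5% of all non-scoring genes. Of 6 mismatch repair genes, MSH6 and PMS1 rose; MSH6 was at 136 and 127 CPM in cycling cells, against 82.2 and 74.2 CPM in G1-listed cells.

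Of genes for making RNA and protein, splicing factors rose in 19 of 31 cases, with SRSF5 falling, and a median log2 difference of 0.24; PTBP1, a splicing repressor, was at 105 and 108 CPM in cycling cells, against 61.6 and 69 CPM in G1-listed cells. Heat shock chaperone and proteasome genes rose in 13 of 36 cases and fell in 2, HSPA8, the constitutive HSP70, being at 1094 and 1109 CPM in cycling cells, against 712 and 724 CPM in G1-listed cells. Nucleolar and ribosome biogenesis genes rose in 12 of 42 cases, and NOP56, a box C/D core protein gene, was at 149 and 156 CPM in cycling cells, against 114 and 109.7 CPM in G1-listed cells. Cytosolic ribosomal protein genes took a smaller share of the RNA: 62 of 77 fell and none rose (median log2 difference -0.19, beside 10.4% falls over all genes), although all 77 had more UMIs per cell in cycling cells, with a median ratio of 1.22. Their summed share of UMIs was 24.0% and 24.1% in cycling cells, against 26.8% and 27.1% in G1-listed cells. Transcripts of this family share sequence with many pseudogenes.

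**Figure D3:**
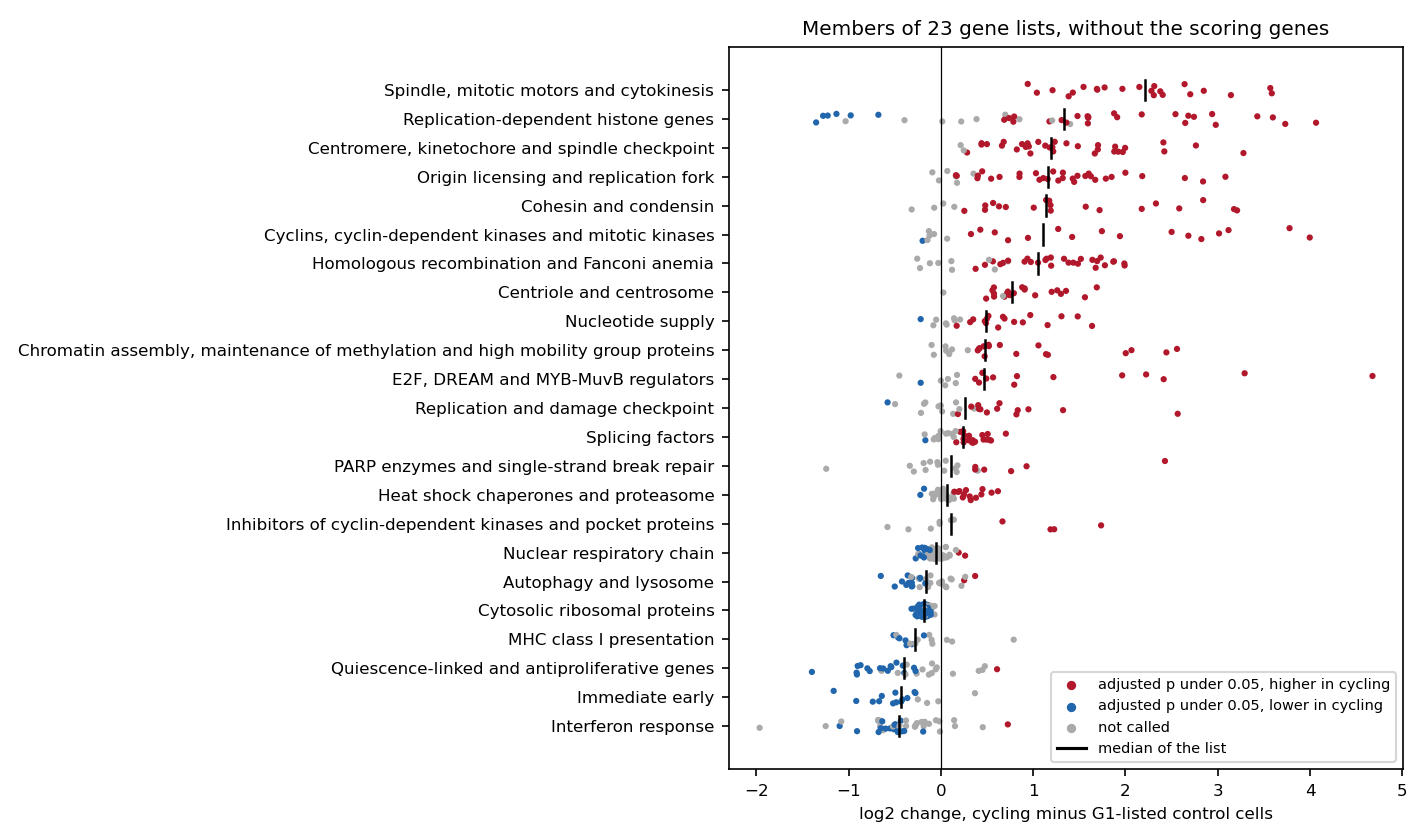
Log2 difference, cycling minus G1-listed control cells, for every tested member of 23 gene lists that is not a scoring gene; each point is a gene, coloured by its call, and black bars are list medians. Spindle genes all lie right of 0, histone genes lie on both sides, and the ribosomal protein, interferon and immediate early lists have medians left of 0, as shares of RNA; per cell their median ratios were 1.22, 1.01 and 1.02.

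Among the 15 largest falls were IGFBP5, CLDN4, HIST1H2BD, HIST1H2AC, BHLHE41, MAL, KLHL24, TSC22D1, CLDN3, CEBPD, CAPS, RARRES3, NR4A1 and TXNIP, and all 15 had fewer UMIs per cell in cycling cells. IGFBP5 (chr2:216672105-216695525), a secreted binding protein of insulin-like growth factors, was at 22.4 and 20.4 CPM in cycling cells, against 79.1 and 81.3 CPM in G1-listed cells, a log2 difference of -1.91 (SE 0.14, adjusted p = 2.49e-08) and a UMI per cell ratio of 0.367. CLDN4 (chr7:73799542-73832693), a tight junction claudin, was at 9.71 and 10.7 CPM in cycling cells, against 33.8 and 34 CPM in G1-listed cells, a log2 difference of -1.73 (SE 0.13, adjusted p = 5.84e-13) and a per cell ratio of 0.418. CLDN3 was at 34.4 and 34.1 CPM in cycling cells, against 69.7 and 70.8 CPM in G1-listed cells, with a per cell ratio of 0.674. BHLHE41, a circadian repressor, was at 88.2 and 87.5 CPM in cycling cells, against 196 and 195 CPM in G1-listed cells, a log2 difference of -1.15 (SE 0.065, adjusted p = 7.74e-23) and a per cell ratio of 0.622. TSC22D1, a leucine zipper factor induced by TGF-beta, was at 207 and 196 CPM in cycling cells, against 437 and 408 CPM in G1-listed cells, a log2 difference of -1.07 (SE 0.059, adjusted p = 3.12e-22) and a per cell ratio of 0.661.

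Quiescence-linked and antiproliferative genes fell in 17 of 33 cases, and 1, BTG3, rose (median log2 difference -0.40). TXNIP (chr1:145992435-145996600), an arrestin-like brake on glucose uptake, was at 288 and 291 CPM in cycling cells, against 545 and 543 CPM in G1-listed cells, a log2 difference of -0.91 (SE 0.076, adjusted p = 2.78e-09) and a per cell ratio of 0.736. ZFP36, which speeds the decay of AU-rich mRNAs, was at 94 and 104 CPM in cycling cells, against 182 and 188 CPM in G1-listed cells, with a per cell ratio of 0.742. Of these 33 genes, 18 had more UMIs per cell in cycling cells. Immediate early genes fell in 13 of 17 cases and none rose (median -0.43), and 9 of the 17 had more UMIs per cell in cycling cells. JUNB, an AP-1 subunit, was at 118 and 112 CPM in cycling cells, against 196 and 189 CPM in G1-listed cells, a log2 difference of -0.74 (SE 0.061, adjusted p = 1.43e-15) and a per cell ratio of 0.828, while JUN was at 408 and 393 CPM in cycling cells, against 562 and 558 CPM in G1-listed cells, with a per cell ratio of 0.988. MYC was at 128 and 129 CPM in cycling cells, against 160.4 and 170.2 CPM in G1-listed cells, a log2 difference of -0.36 (SE 0.074, adjusted p = 0.000235), but its per cell ratio was 1.07.

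Interferon-stimulated genes fell in 18 of 44 cases (40.9%, beside 10.5% of all non-scoring genes), and 1, HERC5, rose (median -0.45). Of the 44, 24 had more UMIs per cell in cycling cells. IFITM3, a membrane barrier to virus entry, was at 245 and 247 CPM in cycling cells, against 359.7 and 386 CPM in G1-listed cells, a log2 difference of -0.60 (SE 0.053, adjusted p = 2.16e-14) and a per cell ratio of 0.911; ISG15, a ubiquitin-like modifier, was at 151 and 154 CPM in cycling cells, against 227 and 241 CPM in G1-listed cells, with a per cell ratio of 0.899. MHC class I presentation genes fell in 7 of 17 cases (41.2%) and none rose, but 15 of the 17 had more UMIs per cell in cycling cells. HLA-B, whose reads can be shared with other HLA genes, was at 78.4 and 81.5 CPM in cycling cells, against 101 and 108 CPM in G1-listed cells, a log2 difference of -0.38 (SE 0.061, adjusted p = 9.81e-07) and a per cell ratio of 1.06. Lysosome genes fell in 14 of 33 cases (42.4%) and 2 rose, and of these 33, 31 had more UMIs per cell in cycling cells. FTH1, the ferritin heavy chain that stores iron, was at 4609.7 and 4579 CPM in cycling cells, against 6121 and 5948 CPM in G1-listed cells, a log2 difference of -0.39 (SE 0.038, adjusted p = 5.13e-13) and a per cell ratio of 1.05.

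Of 13 serous lineage genes, 5 fell (38.5%, beside 10.5% of all non-scoring genes) and none rose. PAX8, the lineage factor, was at 158 and 140.3 CPM in cycling cells, against 206 and 194 CPM in G1-listed cells, a log2 difference of -0.42 (SE 0.065, adjusted p = 5.96e-07) and a per cell ratio of 1.03. S100A4, a calcium-binding gene of motile cells, was at 1634 and 1607 CPM in cycling cells, against 2786 and 2703 CPM in G1-listed cells, a log2 difference of -0.76 (SE 0.051, adjusted p = 1.73e-17) and a per cell ratio of 0.818.

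Most cycling control cells were called G2/M here, by scores of the scoring genes on cells thinned to 3000 UMIs. A call names a score class and not a measured phase. Of 2606 cycling cells deep enough, 854 (32.8%) were called S, 1521 (58.4%) G2/M and 231 (8.86%) G1, and 569 lay within 0.05 score units of a boundary. In pools 1 and 2 the S share was 33.8% and 31.5%. Of 1955 G1-listed cells, 1681 (86.0%) were called G1, 211 (10.8%) G2/M and 63 (3.22%) S. Levels in these classes are CPM without TMM scaling and are described with no test, since the calls use genes that vary with them. CCNB1 was at 47.1 and 53.9 CPM in S-called and 339.9 and 349 CPM in G2/M-called cells, and PLK1 at 17.4 and 18.2 CPM in S-called and 121 and 127 CPM in G2/M-called cells. ARL6IP1, a gene of the spindle list that shapes endoplasmic reticulum, was at 47.7 and 50.5 CPM in S-called and 178 and 199 CPM in G2/M-called cells. These 3 genes were higher in G2/M-called cells in both pools. FAM111B was at 91.5 and 98.3 CPM in S-called and 34 and 29.9 CPM in G2/M-called cells, MCM10 at 75.1 and 66.7 CPM in S-called and 33.3 and 27.6 CPM in G2/M-called cells and CHEK1 at 99.1 and 100.1 CPM in S-called and 65.2 and 63.2 CPM in G2/M-called cells. E2F1 was at 22.9 and 22.7 CPM in S-called and 6.22 and 6.76 CPM in G2/M-called cells, and CCNE1 at 29.5 and 37.8 CPM in S-called and 18 and 19.4 CPM in G2/M-called cells. All 5 were higher in S-called cells in both pools. MSH6 was at 229 and 220.4 CPM in S-called and 90.3 and 86.6 CPM in G2/M-called cells, a wider gap between phases than between cycling and G1-listed cells. HIST1H4C, at 1043 and 1205 CPM in S-called and 1249 and 1307 CPM in G2/M-called cells, and TK1, at 121 and 126 CPM in S-called and 125 and 119.7 CPM in G2/M-called cells, were close in both classes. Mean levels of the replication-dependent histone genes HIST1H1B and HIST1H1A were 31.1 and 52.3 CPM in S-called cells. In G2/M-called cells they were higher, at 42.6 and 70.8 CPM. CDKN1A was at 8.49 and 9.1 CPM in S-called and 21.8 and 24.7 CPM in G2/M-called cells. The 231 unlisted cells called G1 lay between the groups for CCNB1, at 43.2 and 43.0 CPM, and for MYBL2, at 31.9 and 35.8 CPM. They did not for every gene: MCM2 was at 39.4 and 41.2 CPM, near its cycling level, and CDKN1A at 5.63 and 2.69 CPM, below both groups. These CDKN1A values rest on few UMIs, near the floor, since the sums hold only 120 and 111 cells.

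**Figure D4:**
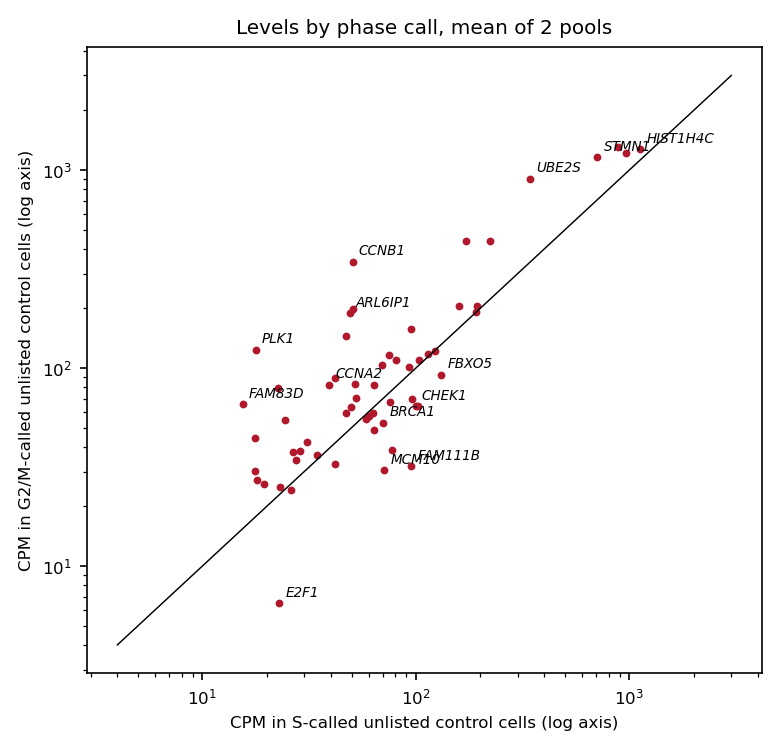
Mean level over 2 pools in G2/M-called (vertical) against S-called (horizontal) cycling control cells, in CPM on log axes, for named non-scoring genes at least 2-fold higher in cycling cells. The line marks equal levels; CCNB1 and PLK1 lie far above it, and E2F1, FAM111B and MCM10 below it.

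Control cells held more cells off the list than treated cells did. The share was 57.7% (95% exact binomial interval 55.7 to 59.6) in pool 1 and 56.5% (54.3 to 58.6) in pool 2, a mean of 57.1% ± 0.838 (SD, n = 2 pools). It was 24.3% ± 0.504 in 10 µM persister, 23.2% ± 2.68 in 320 µM persister, 35.02% ± 2.92 in 10 µM adapted and 45.5% ± 0.86 in 320 µM adapted cells. With 2 pools a group the exact two-sided permutation test gave p = 0.333 for each of these 4 comparisons, the smallest p it allows.

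Whether the split itself looked the same without drug was tested as the control difference minus the mean of the 4 treated differences, from the same fit. The 4 had equal weight, but the persister sums were small. Cycling sums held 74 and 63 cells in 10 µM persister and 158 and 152 cells in 320 µM persister. There 3 UMIs equal 3.69 and 3.58 CPM at 10 µM and 1.38 and 1.34 CPM at 320 µM, so low genes rest on few UMIs. It passed the test for 1068 of 12892 genes (8.28%), with the control value higher for 610 and lower for 458. Of 96 non-scoring genes named here, it passed for 51, with the control value higher for 17 and lower for 34. Some of the 96 were chosen for a low p in this same test, and others for a call in the same fit. That count and its direction are therefore not to be read against the share over all genes. STMN1, which destabilises microtubules, had a log2 difference of 1.04 in control and a mean of 2.16 in treated cells (adjusted p of the difference = 6.87e-23). It was at 954 and 959.8 CPM in cycling cells, against 470.5 and 461 CPM in G1-listed cells in control, whereas the G1-listed means of treated cells were 102 ± 6.96, 256 ± 5.66, 223 ± 6.38 and 165 ± 2.73 CPM (SD, n = 2) in 10 µM persister, 320 µM persister, 10 µM adapted and 320 µM adapted cells. MYBL2 had a log2 difference of 2.22 in control and 4.07 in treated cells (adjusted p = 2.78e-17), and TK1 1.64 and 3.099 (adjusted p = 2.78e-17). CENPW, a centromere protein gene, had 0.88 in control and 2.02 in treated cells (adjusted p = 2.78e-17). CCNA2 had 3.78 and 4.87 (adjusted p = 0.000474), E2F1 1.96 and 3.26 (adjusted p = 0.00412), and CCNB1 2.82 and 3.21 (adjusted p = 0.00833). From group means with 0.5 CPM added, CCNA2 had 3.65 in control and 3.57 in 10 µM persister cells. In 320 µM persister, 10 µM adapted and 320 µM adapted cells it had 5.29, 4.45 and 5.06. Other cell cycle genes, chosen after their values were seen, had a larger difference in control cells: MXD3 had 3.58 in control and 2.65 in treated cells (adjusted p = 0.00255), FAM111A 2.92 in control and 2.38 in treated cells (adjusted p = 0.00589), CDKN2D 1.19 in control and 0.65 in treated cells (adjusted p = 0.0392) and UBE2S 2.01 in control and 1.73 in treated cells (adjusted p = 0.00164).

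BRCA1, BRCA2 and PARP1 also had a smaller difference in control cells than the mean of treated cells. BRCA1 had a log2 difference of 1.99 in control and 2.66 in treated cells (adjusted p = 0.000247), and BRCA2 1.64 and 2.52 (adjusted p = 0.00109). From group means with 0.5 CPM added, BRCA2 had 1.59 in control and 1.60 in 10 µM persister cells. It had 3.02 in 320 µM persister, 2.20 in 10 µM adapted and 2.78 in 320 µM adapted cells. BRCA1 had 1.95 in control and 2.11 in 10 µM persister cells. Over whole lists the median of control minus treated was -0.43 for homologous recombination and Fanconi anemia genes (17 of 37 called), -0.05 for checkpoint genes (2 of 26), 0.05 for PARP and single-strand break repair genes (4 of 20) and 0.05 for mismatch repair genes (0 of 6). PARP1 had 0.37 in control and 0.63 in treated cells (adjusted p = 0.00422), a difference of -0.11 that did not pass with adapted cells alone (adjusted p = 0.46). CDKN1A had 0.67 in control and 1.497 in treated cells (adjusted p = 5.57e-05); with adapted cells alone the difference was -0.40 (adjusted p = 0.13). CCND1 went the other way, with -0.08 in control and -0.54 in treated cells (adjusted p = 0.000105), and its difference was 0.10 with adapted cells alone (adjusted p = 0.69). FTH1 had -0.39 in control and -1.01 in treated cells (adjusted p = 2.78e-17), and MT2A, a metallothionein gene, -0.17 and 0.64 (adjusted p = 8.51e-18).

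The makeup of the G1-listed cells also differed between conditions, and its link to these differences was not tested. Of control G1-listed cells, 14.0% were called S or G2/M here, against 3.48% and 3.93% in 10 µM and 320 µM persister and 4.28% and 2.81% in 10 µM and 320 µM adapted cells. With cells kept only where listing and phase call matched, the difference was -1.13 for STMN1, -1.85 for MYBL2 and -1.54 for TK1, close to -1.12, -1.85 and -1.46 with all cells. It was -0.17 for CCNB1 (adjusted p = 0.38), -0.43 for BRCA1 (adjusted p = 0.056) and -1.03 for E2F1 (adjusted p = 0.068), none of which passed. With the same cells the difference still passed for CCNA2 (-1.14), CENPW (-1.13), BRCA2 (-0.95), CDKN1A (-0.92) and PARP1 (-0.25). The same was true of MT2A (-0.85), FTH1 (0.60) and CCND1 (0.49).

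**Figure D5:**
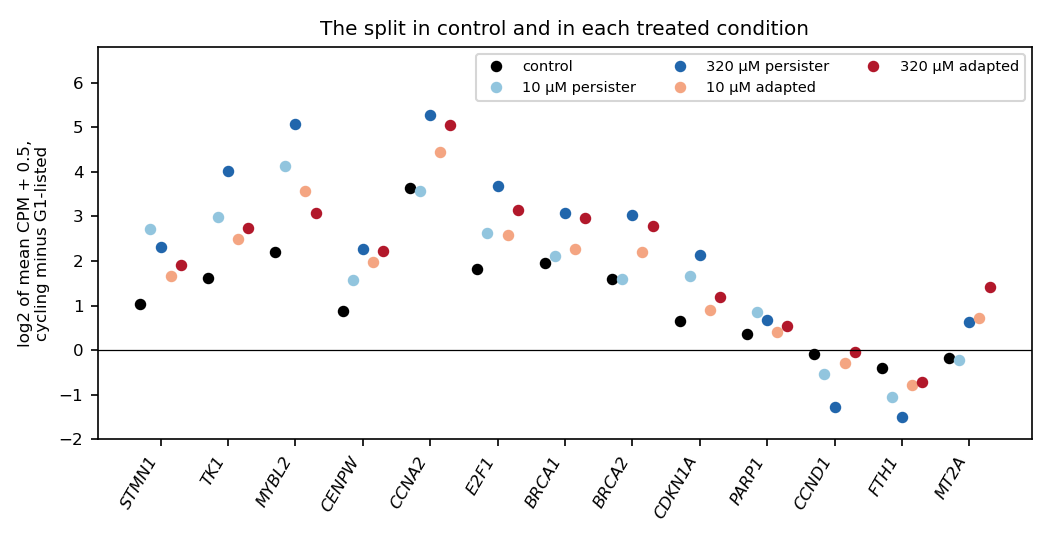
Log2 difference between cycling and G1-listed cells in control (black) and in each treated condition, from group means over 2 pools with 0.5 CPM added. Treated conditions follow in the order of the legend. Control points lie lowest or nearly so for the first 10 genes and highest or nearly so for FTH1; MT2A is below 0 in control and 10 µM persister cells only.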

How the data were processed

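Per the submitters' processing notes, reads were processed with Cell Ranger 3.1 and Seurat on GRCh38; no other step is known from the labels. A deposited table gives UMI counts for 19893 genes and 13800 cells, and another deposited file lists 7762 G1 cells. UMIs were summed per condition, listing and pool (20 sums). They were tested with edgeR 4.0.16 (R 4.3.3; TMM, filterByExpr, robust quasi-likelihood, 1 mean per group, 10 residual degrees of freedom, biological coefficient of variation 4.542%) with Benjamini-Hochberg adjustment over 12892 genes. Phases were called on cells thinned to 3000 UMIs with scanpy 1.11.5 and the Seurat 5.3.0 gene lists. No doublet caller was run; leaving out cells above the 95th percentile of UMIs stands in for it. The fit was also run on simulated sums, with the outcome not reported here. Those sums were drawn independently, without the correlation within pools given below, so that run cannot speak to its effect. Members and lists were chosen with earlier results of these data known.

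Named genes are 21 core genes; the 15 largest rises and falls of called genes with at least 30 CPM and no overlap of groups; per list, up to 4 called members ranked by p at 20 CPM or more; and the 8 lowest p for the difference from treated cells. Some genes of this rule are not reported here. Exceptions within a list, CDT1 and ATM were named after their values were seen. Both groups of a pool come from the same libraries, and their deviations correlated at 0.379 in control cells over 4685 genes (at least 0.108 in every pair), so pool numbers pair the sums. Alternatives were DESeq2 1.42.0, size factors, filters, a pool block, left-out sums, thinning, other phase calls and scaling by cell number.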

Additional observations from a re-analysis of the deposited data

Results flagged for a closer look

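The cycling difference, cycling minus G1-listed, was tested between control and treated cells as a difference of differences in edgeR's quasi-likelihood fit, and 51 of 96 non-scoring genes named in the text passed a Benjamini-Hochberg adjusted p of 0.05. Some of the 96 were chosen by this same test, so that count says nothing of genes at large. The 14 given here are those of the core genes and of the genes chosen for this difference that passed. The values are control minus the mean of the 4 treated conditions on the log2 scale. The difference was negative, with a smaller rise in control cells than the treated mean, for MYBL2 (-1.85), TK1 (-1.46), E2F1 (-1.29), CENPW (-1.14), STMN1 (-1.12), CCNA2 (-1.09), BRCA2 (-0.88), CDKN1A (-0.83), BRCA1 (-0.67), CCNB1 (-0.39) and PARP1 (-0.25). For CCNA2 and BRCA2 the rise in lower-dose persister cells was near that in control. The difference was not tested for each treated condition. Control minus treated was -0.81 for MT2A, which as a share of RNA was lower in cycling control cells. The mean for MT2A over the 4 treated conditions was positive. In the lower-dose persister cells, however, MT2A was also lower in cycling cells. The difference was 0.62 for FTH1 and 0.47 for CCND1, both with a larger mean fall in treated cells. When sums were scaled by cell number, the adjusted p was 0.25 for BRCA1, 0.13 for BRCA2, 0.90 for CCNB1, 0.57 for CCND1, 0.078 for CDKN1A and 0.25 for FTH1, and PARP1 did not pass either.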

How the results depend on the processing

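Of the 94 called genes named in the text, none changed direction with a call in any of the settings run. The pool block kept all 94 calls and gave 2163 rises, 1720 falls and 1534 genes for the difference from treated cells; it moved no count by over 1.5 times and changed no call of a named gene. Fitted on the 4 control sums only, 2008 of 11782 genes rose and 1652 fell. Median-ratio size factors gave 1584 rises and 1720 falls, more falls than rises, and DESeq2 gave 1313 rises and 1284 falls. After thinning to 3000 UMIs, 1116 genes rose, 751 fell and 384 passed for the difference. Scaled by cell number, 4645 rose, 50 fell and 121 passed for the difference. With 1 control sum left out, falls ranged from 812 to 880 and the difference from 626 (without G1 pool 2) to 752. With adapted cells alone, 703 genes passed for the difference. The share of cells off the list was 58.0% by own phase calls after thinning and 55.7% without thinning. Scaled by cell number, these log2 differences were positive: 0.40 for CCND1, 0.10 for MYC, 0.042 for PAX8, 0.077 for FTH1, 0.084 for HLA-B, 0.16 for MSLN, 0.11 for KIF3A and 0.31 for MT2A; after thinning CDKN1B was at -0.10. Calls lost elsewhere were those of CCNE1 and MT2A without G1 pool 1, MT2A without cycling pool 1, PMS1 and THY1 without G1 pool 2, THY1 without cycling pool 2, HPF1, PMS1, KIF3A and THY1 after thinning, PMS1 and THY1 with DESeq2, and PMS1 with own phase calls. Scaled by cell number, NR4A1, ZFP36, AKR1C3, IFITM3, ISG15, JUNB, JUN, TM7SF2 and S100A4 also lost their calls. The cause of these changes was not tested. A floor of 3 UMIs limits what low genes can show.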

Other observations

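Further lists are read beside the share over all non-scoring genes, of which 13.5% rose and 10.5% fell, as shares of RNA. Of 15 fatty acid synthesis genes, 6 (40.0%) rose and none fell in cycling cells (median log2 difference 0.34); FADS1, a fatty acid desaturase, was at 81.1 and 77.6 CPM in cycling cells, against 49 and 48.3 CPM in G1-listed cells, a log2 difference of 0.71 (SE 0.077, adjusted p = 2.55e-11). Of 24 cholesterol synthesis genes, 8 (33.3%) rose and 1 fell (median 0.08), among them ACAT2, which makes acetoacetyl-CoA, at 168 and 154 CPM in cycling cells, against 93.5 and 95.6 CPM in G1-listed cells; TM7SF2, a sterol reductase, was at 147 and 144 CPM in cycling cells, against 195 and 212 CPM in G1-listed cells, with a UMI per cell ratio of 0.988. Glycolysis and hypoxia genes rose in 9 of 28 cases (32.1%) and fell in 3 (10.7%; median 0.03); PFKP, the platelet-type phosphofructokinase, was at 30.2 and 31.6 CPM in cycling cells, against 18.5 and 20 CPM in G1-listed cells. Stress response genes (integrated stress response and unfolded proteins) numbered 28, of which 5 (17.9%) rose and 4 (14.3%) fell, near the shares over all genes, with MTHFD2, a mitochondrial folate enzyme, at 107 and 119 CPM in cycling cells, against 66.8 and 65.7 CPM in G1-listed cells.

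Nuclear respiratory chain genes rose in 2 of 60 cases and fell in 12 (median -0.05), and all 60 had more UMIs per cell in cycling cells. Of 36 primary cilium genes, 5 (13.9%) fell and none rose; KIF3A, a subunit of the intraflagellar motor, was at 41.4 and 38.3 CPM in cycling cells, against 50.3 and 51.6 CPM in G1-listed cells, with a per cell ratio of 1.08. Of 21 NRF2 targets, 6 (28.6%) fell and none rose, and AKR1C3, an aldo-keto reductase, was at 13 and 13.7 CPM in cycling cells, against 26.1 and 24.7 CPM in G1-listed cells, with a per cell ratio of 0.729. Mitochondrially encoded genes fell in 2 of 13 cases (15.4%), ABC transporters rose in 2 (9.09%) and fell in 3 (13.6%) of 22, mesenchymal and matrix genes rose in 2 and fell in 2 of 28, and TGF-beta and YAP targets rose in 2 and fell in 4 of 22. Epithelial junction and keratin genes rose in 1 and fell in 4 (23.5%) of 17, and inflammatory genes and aldehyde dehydrogenase and stem cell genes each had 1 rise and 1 fall, of 26 and of 17.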
